A study of Mus musculus with 12 samples.

Results

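The 10 genes of this set, used or studied as oncofetal markers of liver cancer, were followed in 6 liver tumors and in non-tumoral liver from each of the 6 animals. The genes, 10 of 24421 symbols counted, are Gpc3, Golm1, Spink1, Ly6d, Sox4, Igf2bp1, Igf2bp2, Igf2bp3, Lin28b, and Hmga2, and they were taken by symbol. The mice were aged, kept on a standard diet, and carried Tert (p21+/Tert, 4 mice) or a catalytically inactive Tert (p21+/TertCi, 2 mice) under the control of the p21 (Cdkn1a) promoter, in every group used here and in the livers as well as the tumors. No wild-type liver was used here. Tumors named with T- came from p21+/Tert mice and those named with TCi- from p21+/TertCi mice, with HCC and HCA standing for hepatocellular carcinoma and adenoma. T-HCC663 bears a carcinoma's name, although the study's histology lists an adenoma for that mouse. The study's exome data place T-HCC662 and T-HCC663 in a Ctnnb1 (β-catenin) class, T-HCC941 (Egfr) and TCi-HCC981 (Hras) in an Egfr or Hras class, and T-HCA992 and TCi-HCA984 in neither. Each class thus held 2 tumors, and both Ctnnb1-mutated tumors came from p21+/Tert mice. Each liver is paired below with the tumor of its mouse. The title of 1 p21+/Tert liver, p_961, gives a mouse number that the study does not list, and this liver was taken as that of the T-HCC662 mouse by elimination.

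Oncofetal genes are active in the fetal liver, are largely silent in the adult organ, and reappear in part of the hepatocellular tumors. One of their best-known circuits joins the RNA-binding protein Lin28b to the let-7 microRNAs. Lin28b blocks the maturation of let-7, and let-7 in turn represses mRNAs that carry its seed match, among them those of Lin28b itself, Hmga2, and the Igf2bp family. Gpc3, Golm1, and Spink1 belong to another class of markers, proteins at the cell surface or released from the cell that are measured in tissue or serum.

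The let-7 sequences are shown because members with and without reads in these tumors carry matches to their seed. All 9 mature let-7 and miR-98 sequences found in RefSeq share the seed (bases 2 to 8), which is in capitals.
mmu-let-7a-5p: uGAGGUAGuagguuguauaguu
mmu-let-7g-5p: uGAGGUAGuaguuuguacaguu
mmu-miR-98-5p: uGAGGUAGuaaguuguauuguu

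The reverse complement of the seed, CTACCTC, was searched in the longest annotated 3′ untranslated region of each gene (GENCODE M21, GRCm38, the mm10 build). It was found 4 times each in Igf2bp1, Lin28b, and Hmga2, 1 time each in Igf2bp2 and Igf2bp3, and not in Gpc3, Golm1, Spink1, Ly6d, or Sox4. Of 21110 genes with such a region, 2128 (10.1%) held a match. The windows below give 1 site for each of the 5 genes, 5′ to 3′ on the transcribed minus strand, with the match in capitals. They lie at chr6:49086780-49086809 (Igf2bp3), chr16:22059466-22059495 (Igf2bp2), chr10:120364217-120364246 (Hmga2), chr10:45381015-45381044 (Lin28b), and chr11:95961771-95961800 (Igf2bp1).
Igf2bp3: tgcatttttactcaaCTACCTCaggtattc
Igf2bp2: acacacaaataaaagCTACCTCaggtgttt
Hmga2: gccgacattcaatttCTACCTCagcatcag
Lin28b: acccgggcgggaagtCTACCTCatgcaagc
Igf2bp1: gctgtgcgaagtaaaCTACCTCaaggtgtg
A match is a description of the letters and does not show that let-7 acts there. Mature let-7 was not measured in these poly(A) libraries.

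Between 14571716 and 23932529 reads per liver and between 17471387 and 26170661 per tumor were counted on genes. Values are given as CPM, counts per 1000000 after scaling of the library sizes by edgeR's TMM method. A count of 0 allows up to 3 counts, or 0.108 to 0.230 CPM depending on the library, and this limit covers counting error only. Differences were tested by edgeR's quasi-likelihood method, p-values were adjusted after Benjamini and Hochberg, and genes were called at an adjusted p under 0.05. Across the tested genes, 1477 of 13822 (10.7%) were called between the 6 tumors and the 6 livers. Of the 10 members, 6 passed the expression filter of that comparison, and 5 of these were called, all higher in tumors. The other 4 (Spink1, Hmga2, Igf2bp1, and Lin28b) had too few reads in too many libraries to be tested. Fewer cells of one type and less RNA per cell cannot be told apart in such bulk samples.

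**Figure D1:**
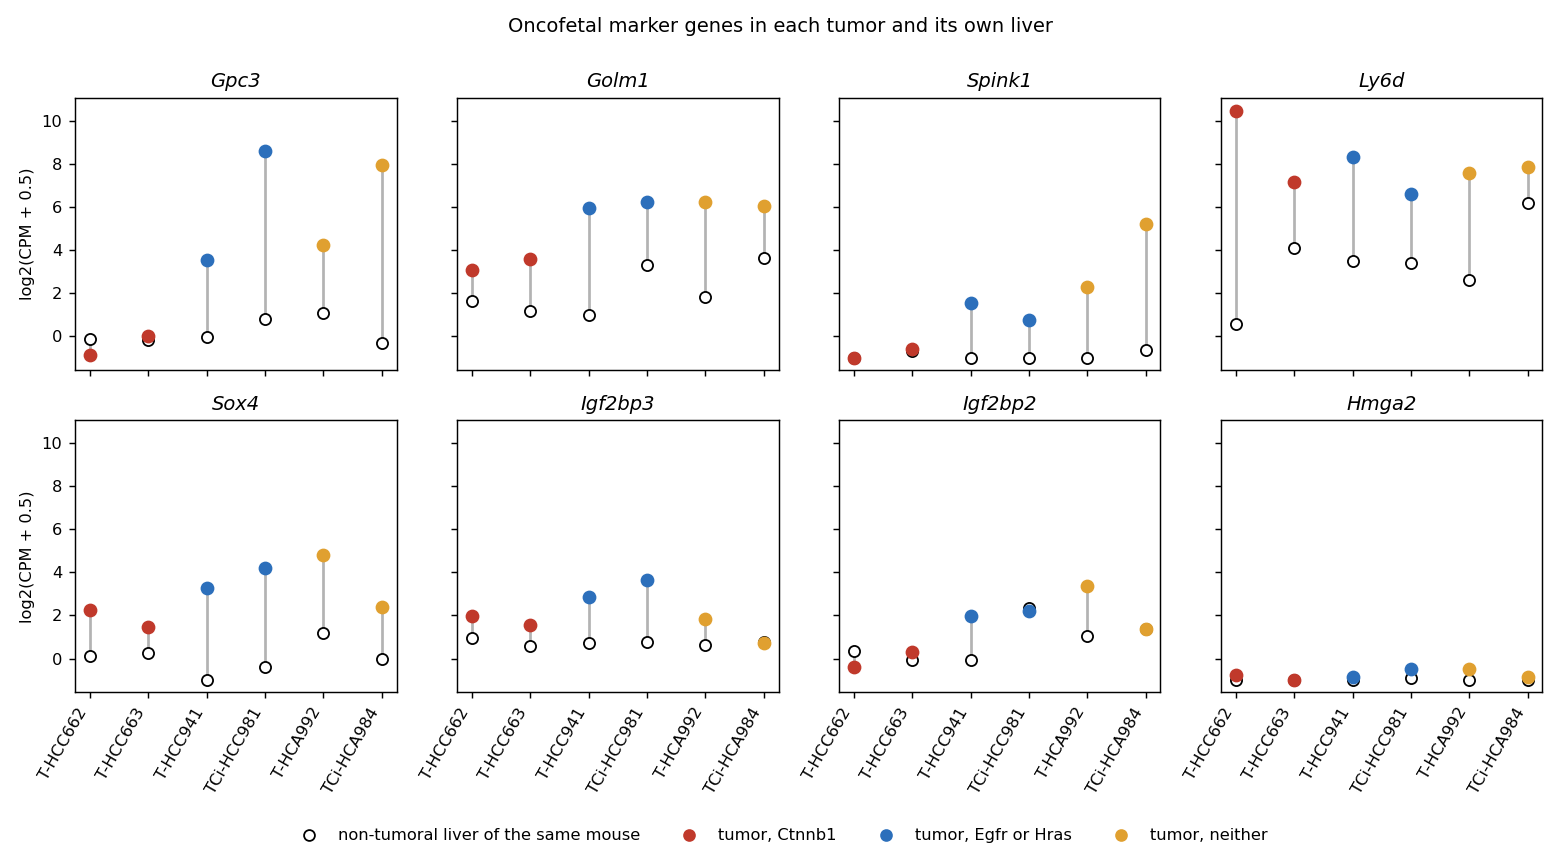
Each panel shows 1 gene as log2(CPM + 0.5), with open points for the non-tumoral liver and colored points for the tumor of the same mouse, joined by a line and ordered by driver class. Among the 6 tumors, Gpc3, Golm1, and Spink1 are lowest in the 2 Ctnnb1-mutated ones, whereas Ly6d is highest in T-HCC662 (1416 CPM). Lin28b and Igf2bp1, with 0 reads in all 12 libraries, are left out.

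Gpc3 encodes glypican-3, a heparan sulfate proteoglycan anchored to the cell surface that is used as an immunohistochemical marker of HCC. The gene lies on chromosome X from 52272426 to 52613950 on the minus strand (mm10, GENCODE). Among the Ctnnb1-mutated tumors, T-HCC662 held 0.0445 CPM and its liver 0.427 CPM, and T-HCC663 held 0.520 CPM and its liver 0.382 CPM. In the Egfr or Hras class, T-HCC941 held 10.9 CPM and its liver 0.461 CPM, and TCi-HCC981 held 391 CPM and its liver 1.27 CPM. Of the tumors with neither driver, T-HCA992 held 18.1 CPM and its liver 1.59 CPM, and TCi-HCA984 held 247 CPM and its liver 0.295 CPM. In all, 4 tumors were above every liver, and the 2 Ctnnb1-mutated tumors lay within or below the range of the livers. Against the liver of the same mouse, Gpc3 was 838-fold higher in TCi-HCA984, 309-fold in TCi-HCC981, 23.7-fold in T-HCC941, and 11.4-fold in T-HCA992. It was 1.36-fold higher in T-HCC663. T-HCC662 held 1 Gpc3 read against 6 in its liver, a ratio of 0.104 with an exact 95% counting interval from 0.00227 to 0.859. Over all tumors the log2 fold change was 7.18 ± 1.66 (SE, n = 6 and 6, edgeR adjusted p = 0.0162). With the mouse as a block, it was 5.28 and missed the threshold (edgeR adjusted p = 0.0559).

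Golm1 encodes a Golgi membrane protein, also called GP73, that is shed into serum in liver disease. It lies on chromosome 13 from 59634626 to 59675811 on the minus strand. In the Ctnnb1 class, T-HCC662 held 7.79 CPM and its liver 2.56 CPM, and T-HCC663 held 11.4 CPM and its liver 1.72 CPM. In the Egfr or Hras class, T-HCC941 held 62.0 CPM and its liver 1.46 CPM, and TCi-HCC981 held 74.3 CPM and its liver 9.37 CPM. Of the tumors with neither driver, T-HCA992 held 73.3 CPM and its liver 3.03 CPM, and TCi-HCA984 held 65.5 CPM and its liver 11.8 CPM. Every tumor exceeded its own liver, by 3.04-fold in T-HCC662 and by 42.5-fold in T-HCC941 at the extremes. The 4 tumors without a Ctnnb1 mutation fell in a narrow band, whereas the 2 with one remained inside the range of the livers. The log2 fold change over all tumors was 3.28 ± 0.70 (SE, n = 6 and 6, edgeR adjusted p = 0.0104). Golm1 shares 1297 exonic bases with Naa35 on the opposite strand, and the strand setting of the counting is not given in the sources used here. Naa35 lay between 11.9 and 25.0 CPM in the 12 libraries, with its lowest value in T-HCC941.

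Spink1 encodes a secreted trypsin inhibitor of the exocrine pancreas, elevated in a subset of HCC. It lies on chromosome 18 from 43728082 to 43737557 on the minus strand. No liver held more than 3 Spink1 reads. T-HCC662 held 0 reads and T-HCC663 held 4, against 23 in TCi-HCC981, 45 in T-HCC941, 121 in T-HCA992, and 639 in TCi-HCA984, the last corresponding to 36.6 CPM. The 4 tumors without a Ctnnb1 mutation were therefore the ones above every liver by more than a few reads. In T-HCC941, T-HCA992, and TCi-HCC981, whose livers held 0 reads, Spink1 was at least 10.46-fold, 27.3-fold, and 9.34-fold higher, with 3 counts per library as the floor. TCi-HCA984 had 249 times the level of its liver, with an exact 95% counting interval from 84.7 to 1209. Spink1 did not pass the filter of the comparison of all tumors with livers. When every gene with at least 1 count was kept, its log2 fold change was 7.11 ± 1.63 (SE, n = 6 and 6, edgeR adjusted p = 0.0172). Levels of pancreatic acinar genes were read beside it, and their part in the Spink1 level was not tested. Cpa1 and Pnlip had 0 reads in all 12 libraries, and apart from Cela1 (7.37 to 108 CPM) no acinar or other Spink gene of the list exceeded 5.03 CPM. The summed level of the list ran from 10.2 to 62.7 CPM in livers and from 35.2 to 113 CPM in tumors. It was highest in T-HCC662, which had no Spink1 read and where Cela1 made up 108 CPM of the sum.

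Ly6d encodes a small GPI-anchored protein of the Ly6 family, known as a marker of early B lineage cells and of squamous epithelia. It lies on chromosome 15 from 74762056 to 74763620 on the minus strand. In the Ctnnb1 class, T-HCC662 held 1416 CPM and its liver 0.997 CPM, and T-HCC663 held 144 CPM and its liver 16.7 CPM. In the Egfr or Hras class, T-HCC941 held 322 CPM and its liver 10.8 CPM, and TCi-HCC981 held 97.8 CPM and its liver 9.87 CPM. Of the tumors with neither driver, T-HCA992 held 190 CPM and its liver 5.63 CPM, and TCi-HCA984 held 233 CPM and its liver 71.2 CPM. All 6 tumors were above all 6 livers. T-HCC662 exceeded its own liver 1420-fold, and the other ratios ran from 3.28-fold in TCi-HCA984 to 33.8-fold in T-HCA992. The log2 fold change was 4.38 ± 0.98 (SE, n = 6 and 6, edgeR adjusted p = 0.0132). The summed level of B cell markers was higher in the tumor than in its own liver in TCi-HCA984 (4.65 against 2.46 CPM), TCi-HCC981 (29.4 against 22.5), and T-HCC941 (7.07 against 6.14). It was lower in T-HCC662 (4.67 against 12.7 CPM), T-HCC663 (8.97 against 10.6), and T-HCA992 (6.30 against 60.6). These sums ranged from 2.46 to 60.6 CPM in livers and from 4.65 to 29.4 CPM in tumors. By edgeR 0 of the 4 B cell markers tested were called, with 0 at an unadjusted p under 0.05 and 0 called by DESeq2, and the part of B cells in the Ly6d level was not tested.

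Sox4 encodes a transcription factor of the SoxC group that is active in progenitor cells. It is a single-exon gene on chromosome 13 from 28948919 to 28953713 on the minus strand. In the Ctnnb1 class, T-HCC662 held 4.27 CPM and its liver 0.570 CPM, and T-HCC663 held 2.25 CPM and its liver 0.70 CPM. In the Egfr or Hras class, T-HCC941 held 9.05 CPM and its liver 0 CPM, and TCi-HCC981 held 18.0 CPM and its liver 0.253 CPM. Of the tumors with neither driver, T-HCA992 held 27.0 CPM and its liver 1.75 CPM, and TCi-HCA984 held 4.70 CPM and its liver 0.491 CPM. As for Ly6d, no tumor overlapped the livers. Such a separation, with every tumor above every liver, was found for 396 of 13822 genes (2.86%). Relative to its own liver Sox4 was 71.0-fold higher in TCi-HCC981 and 3.22-fold higher in T-HCC663, and at least 39.3-fold higher in T-HCC941, whose liver held 0 reads. The log2 fold change was 4.09 ± 0.80 (SE, n = 6 and 6, edgeR adjusted p = 0.00677). Sox4 shares 2616 exonic bases with Gm26735 on the opposite strand, a gene that is not among the symbols counted. Of the 9 other Sox genes tested, edgeR called 0 between tumors and livers, with 4 at an unadjusted p under 0.05, and DESeq2 called 3.

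Igf2bp1, Igf2bp2, and Igf2bp3 encode RNA-binding proteins that bind and stabilize mRNAs such as those of Igf2 and Myc. Igf2bp1, on chromosome 11, had 0 reads in all 12 libraries. Igf2bp3 lies on chromosome 6 from 49085223 to 49214957 on the minus strand and was nearly constant in livers, between 1.02 and 1.42 CPM. In tumors it was lowest in TCi-HCA984 at 1.15 CPM, followed by T-HCC663 at 2.43, T-HCA992 at 3.02, T-HCC662 at 3.38, T-HCC941 at 6.80, and TCi-HCC981 at 12.0 CPM. In all, 5 tumors were above every liver, TCi-HCA984 was not, and the ratios to the own liver were largest in the Egfr or Hras class (5.90-fold in T-HCC941 and 9.79-fold in TCi-HCC981). The log2 fold change was 2.01 ± 0.48 (SE, n = 6 and 6, edgeR adjusted p = 0.0193). It shares 1529 exonic bases with Malsu1 on the opposite strand, which lay between 9.37 and 19.8 CPM.

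Igf2bp2, on chromosome 16 from 22059009 to 22163299, differed more between mice than between tissues, and the p21+/TertCi livers held the 2 highest liver levels. In the Ctnnb1 class, T-HCC662 held 0.267 CPM and its liver 0.784 CPM, and T-HCC663 held 0.737 CPM and its liver 0.446 CPM. In the Egfr or Hras class, T-HCC941 held 3.43 CPM and its liver 0.461 CPM, and TCi-HCC981 held 4.06 CPM and its liver 4.56 CPM. Of the tumors with neither driver, T-HCA992 held 9.94 CPM and its liver 1.59 CPM, and TCi-HCA984 held 2.12 CPM and its liver 2.11 CPM. Only T-HCA992 exceeded every liver, although T-HCC941 was 7.44-fold above its own. The log2 fold change of 1.03 ± 0.77 (SE, n = 6 and 6, edgeR adjusted p = 0.436) did not pass the threshold, and it moved to 0.33 without T-HCA992 and to 1.64 without the liver of the TCi-HCC981 mouse.

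Lin28b, on chromosome 10 from 45376620 to 45486395, had 0 reads in all 12 libraries. Its paralog Lin28a was detected in TCi-HCA984 at 0.0573 CPM and in its liver at 0.0983 CPM, and nowhere else. Hmga2, an architectural chromatin protein gene on chromosome 10 from 120361275 to 120476469, had 15 reads in 6 libraries. The 14 of these in tumors were 2 in T-HCC662, 1 in T-HCC941, 6 in T-HCA992, 4 in TCi-HCC981, and 1 in TCi-HCA984, and the liver of the TCi-HCC981 mouse held 1. These counts are too low for a comparison. The pseudogene Hmga2-ps1 held 3 to 26 reads in each of the 12 libraries, and how reads with several alignments were counted is not given in the sources used here. Hmga2 also shares 140 exonic bases with 1700006J14Rik on the opposite strand.

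**Figure D2:**
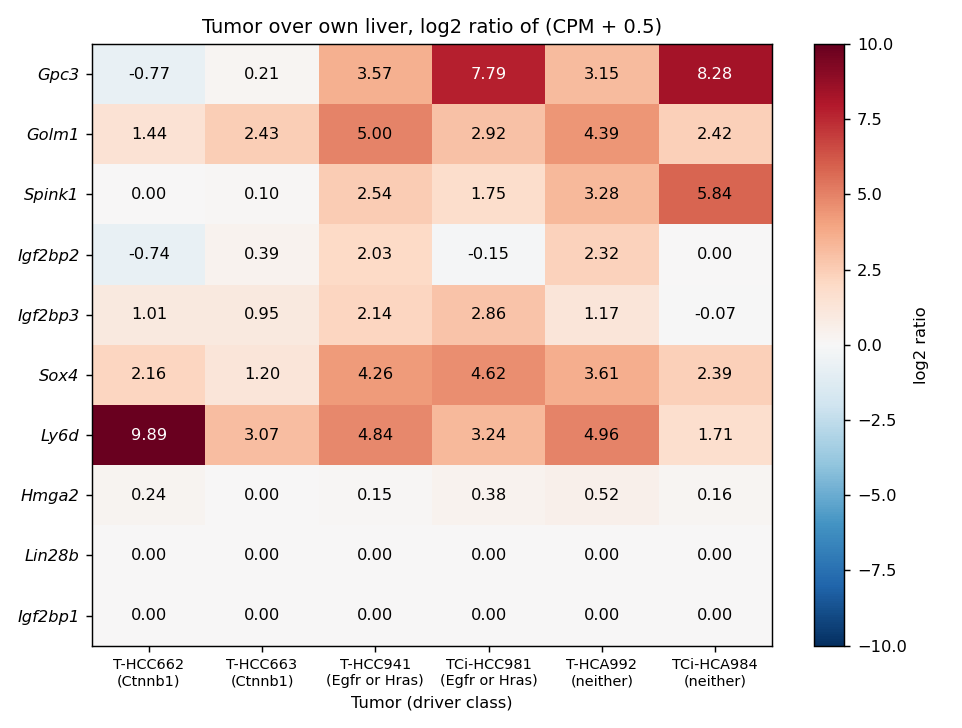
Rows are the 10 genes and columns the 6 tumors grouped by driver class, and each cell gives the log2 ratio of (CPM + 0.5) in the tumor over the liver of the same mouse. Gpc3 reaches 8.28 in TCi-HCA984 and is -0.77 in T-HCC662, whereas Ly6d reaches 9.89 in T-HCC662. Cells at 0.00 in the rows of Lin28b and Igf2bp1 stand for 0 reads in both tissues.

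On the log2 scale with 0.5 CPM added, the median ratio to the own liver over the 7 members tested between tumor classes was 1.01 in T-HCC662 and 0.95 in T-HCC663. It was 3.57 in T-HCC941, 2.92 in TCi-HCC981, 3.28 in T-HCA992, and 2.39 in TCi-HCA984. These medians describe members that passed the filter and carry no test. Spink1, among the 7, passed only through the tumors where it was high, and the T-HCA992 median is its Spink1 value. The choice of members therefore bears on the gap between the classes. Per kilobase of exon, the highest tumor median was that of Ly6d (285 CPM per kb), followed by Golm1 (14.4), Gpc3 (5.40), Spink1 (2.46), Sox4 (1.43), Igf2bp3 (0.393), and Igf2bp2 (0.375). In the livers Ly6d (13.9 CPM per kb) and Golm1 (0.632) also led, and the median of Spink1 was 0. The median levels of neighbors from Golm1 downward are closer than the spread between tumors, and the tumors' Gpc3 alone ran up to 146 CPM per kb.

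The comparison of the 2 Ctnnb1-mutated tumors with the 4 other tumors addressed whether the markers depend on the driver. It called 1896 of 15182 genes (12.5%), and 3 of the 7 members tested, all lower in the Ctnnb1-mutated tumors. Spink1 is among those tested only through the tumors where it was high, since it held 0 and 4 reads in the Ctnnb1-mutated tumors and at most 3 in any liver. Gpc3 fell by 9.13 ± 1.90 on the log2 scale (SE, n = 2 and 4, edgeR adjusted p = 0.0129), Spink1 fell by 6.01 ± 1.39 (edgeR adjusted p = 0.0198), and Golm1 fell by 2.83 ± 0.82 (edgeR adjusted p = 0.0432). For all 3 genes both Ctnnb1-mutated tumors were below each of the other 4, including T-HCC941 and T-HCA992 of the same genotype. The same order held for Igf2bp2 and Sox4, which edgeR did not call, so it does not set the called genes apart. The share of all genes with this separation was not counted. The 4 other tumors include both p21+/TertCi tumors, with 391 and 247 CPM of Gpc3, against 10.9 and 18.1 CPM in T-HCC941 and T-HCA992. Genotype and driver class therefore cannot be told apart in the size of the Gpc3 fall. Igf2bp2 had a log2 fold change of -3.22 ± 1.09 (edgeR adjusted p = 0.0719), Sox4 of -2.15 ± 1.00 (edgeR adjusted p = 0.171), and Igf2bp3 of -0.60 ± 0.44 (edgeR adjusted p = 0.381). Ly6d was the one member with a positive value, 1.90 ± 1.17 (edgeR adjusted p = 0.297). Its level was 1416 CPM in T-HCC662. T-HCC663, at 144 CPM, was below T-HCC941, T-HCA992, and TCi-HCA984 and above TCi-HCC981. None of these 4 genes passed the threshold by edgeR, whereas DESeq2 called Igf2bp2 (-3.25, DESeq2 adjusted p = 0.00577) and gave no value for Ly6d. With the mouse as a block the Igf2bp2 value was -1.58 (edgeR adjusted p = 0.552).

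**Figure D3:**
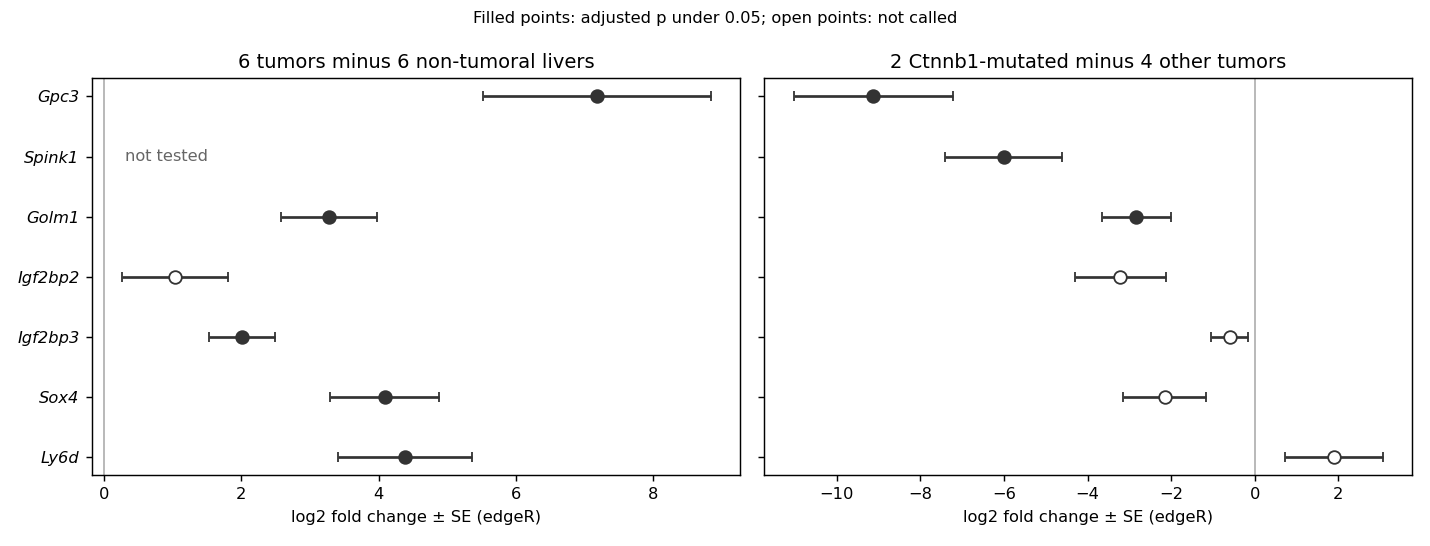
Points give the log2 fold change of each member and bars its SE, for the 6 tumors against the 6 livers (left) and for the 2 Ctnnb1-mutated against the 4 other tumors (right). Filled points passed an adjusted p of 0.05. Gpc3 stands at 7.18 on the left and at -9.13 on the right, and Ly6d is the member above 0 in both. Among the tumors, Ly6d was highest in T-HCC662, whereas T-HCC663 was above TCi-HCC981 only.

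The calls of this comparison rested on few tumors. In a fit of tumors and livers with the mouse as a block, which sets each tumor against its own liver, 441 genes and 0 members were called, with adjusted p = 0.199 for Gpc3, 0.356 for Golm1, and 0.0913 for Spink1. When tumors alone were fitted, Gpc3 and Spink1 lost their calls (edgeR adjusted p = 0.0679 and 0.0560). Leaving out T-HCC662 left 0 members called. Gpc3 also lost its call without T-HCC663 (edgeR adjusted p = 0.06), and Spink1 without TCi-HCA984 (edgeR adjusted p = 0.066), while its value moved to -9.86 without T-HCC663. Golm1 lost its call whichever tumor was left out (edgeR adjusted p from 0.0589 to 0.224). The direction remained negative for all 3 genes in each of these fits. Markers of other cells were also read between the classes, beside the 12.5% of all genes called. By edgeR, 0 of 7 T cell, 0 of 8 macrophage, 0 of 7 B cell, and 0 of 4 erythroid markers were called. At an unadjusted p under 0.05 were 1, 1, 1, and 2 of them in this order, and DESeq2 called 0, 0, 0, and 1. Of the endothelial markers, 2 of 8 (Kdr and Pecam1) were called, both lower in the Ctnnb1-mutated tumors, and Stab2 had a log2 fold change of 0.12. Of the stellate and fibroblast markers, 2 of 8 (Des and Pdgfrb) were called, both lower. The summed endothelial level was 54.3 and 102 CPM in the 2 Ctnnb1-mutated tumors and 142 to 267 CPM in the other 4. Of 8 cholangiocyte markers tested, 1 (Sox9) was called, at a lower level, whereas the values of Krt19 (1.54), Cldn4 (2.49), and Muc1 (0.43) were positive and not called. The cholangiocyte sum was 29.5 and 57.7 CPM against 86.0 to 1103 CPM, of which Spp1 made up 13.7 and 30.2 CPM against 4.16 to 1042 CPM. Of 9 hepatocyte markers, Alb, Cps1, and Serpina1a were called lower in the Ctnnb1-mutated tumors and Cyp2e1, a cytochrome P450 gene, was called higher (3.75 ± 0.65, edgeR adjusted p = 0.00591). Cyp2e1 stood at 5770 and 5003 CPM in the Ctnnb1-mutated tumors and at 75.7 to 1890 CPM in the other 4. The hepatocyte sum, 43690 and 25470 CPM against 89400 to 107400 CPM, was led by Alb, with 16420 and 5917 CPM against 48130 to 71530 CPM. Every hepatocyte marker was detected in every library, and the part of these markers in the result was not tested.

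The promoters of Gpc3, Golm1, and Sox4 are shown because Gpc3 and Golm1 were called lower in the Ctnnb1-mutated tumors and Sox4 was not called. Sox4 had a negative value there as well (-2.15 ± 1.00, edgeR adjusted p = 0.171), so it is not an unchanged gene set against the other 2. Each runs from 250 bases before to 50 after the start of the gene (RefSeq, GRCm38.p6, minus strand), at chrX:52613925-52614224 (Gpc3), chr13:59675735-59676034 (Golm1), and chr13:28953650-28953949 (Sox4). Capitals mark a CCAAT box (CCAAT on either strand) and, in Golm1 nearest the start, an ETS core (CCGGAAG).
Gpc3: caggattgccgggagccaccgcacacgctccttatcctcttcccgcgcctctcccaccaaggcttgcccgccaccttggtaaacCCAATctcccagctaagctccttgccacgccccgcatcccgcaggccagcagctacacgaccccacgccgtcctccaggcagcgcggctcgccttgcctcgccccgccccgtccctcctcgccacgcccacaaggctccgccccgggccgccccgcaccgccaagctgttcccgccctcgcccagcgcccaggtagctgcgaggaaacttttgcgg
Golm1: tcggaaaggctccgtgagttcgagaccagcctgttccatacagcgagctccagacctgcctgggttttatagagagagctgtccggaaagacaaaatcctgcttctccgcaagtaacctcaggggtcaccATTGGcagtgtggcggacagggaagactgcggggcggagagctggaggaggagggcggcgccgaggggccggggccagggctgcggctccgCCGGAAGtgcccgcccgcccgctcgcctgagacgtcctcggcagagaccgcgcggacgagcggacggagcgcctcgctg
Sox4: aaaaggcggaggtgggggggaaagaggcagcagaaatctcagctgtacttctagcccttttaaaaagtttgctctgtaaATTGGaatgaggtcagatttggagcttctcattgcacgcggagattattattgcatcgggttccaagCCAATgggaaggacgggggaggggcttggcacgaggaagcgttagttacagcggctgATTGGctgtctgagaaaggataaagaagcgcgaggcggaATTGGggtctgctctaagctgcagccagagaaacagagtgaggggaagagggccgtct
Of the 7 member promoters found, 5 held a CCAAT box, against 37.4% of 32851 promoters in the table. The ETS core was found in Golm1 alone, against 8.86%. The TCF/LEF core CTTTGAT (3.73% of promoters), the AP-1 site TGANTCA (7.81%), the antioxidant response element TGACNNNGC (12.4%), and the HNF4A motif CAAAGTCCA (0.475%) were searched on both strands and were in none of the 7 windows. The GC content was 70.7% in the Gpc3 window, 67% in Golm1, and 52% in Sox4, against a median of 52.7%.

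The Egfr- or Hras-mutated tumors were also compared with the 2 tumors with neither driver. The former are both carcinomas and the latter both adenomas, so driver class and histology cannot be told apart here. Of 15182 genes, 0 (0%) were called by edgeR, with 1331 at an unadjusted p under 0.05 and 103 called by DESeq2. Of the members tested, Igf2bp3 had the smallest p, with a log2 fold change of 2.15 ± 0.51 (SE, n = 2 and 2, edgeR adjusted p = 0.408). It stood at 6.80 and 12.0 CPM in the Egfr or Hras class and at 3.02 and 1.15 CPM in the tumors with neither. Spink1 had a log2 fold change of -3.52 ± 1.17 (edgeR adjusted p = 0.524), which moved to -1.29 without TCi-HCA984 and to -0.07 with the mouse as a block. Golm1 differed by -0.04 ± 0.81 (edgeR adjusted p = 0.992).

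By genotype, 986 of 15182 genes (6.49%) were called between p21+/Tert tumors and livers, and 3 of the 7 members tested were among them, all higher in tumors. Ly6d had a log2 fold change of 5.92 ± 1.12 (SE, n = 4 and 4, edgeR adjusted p = 0.0136), Golm1 of 4.11 ± 0.69 (edgeR adjusted p = 0.00833), and Sox4 of 3.76 ± 1.01 (edgeR adjusted p = 0.0496). The Sox4 call was lost with the mouse as a block (log2 fold change 3.58, edgeR adjusted p = 0.0513), under RLE scaling (edgeR adjusted p = 0.0504), in the fit of only the libraries compared (edgeR adjusted p = 0.0608), and without any 1 of the 4 livers, T-HCC941, or T-HCA992. Igf2bp3, with a log2 fold change of 1.73 (edgeR adjusted p = 0.116), was called by DESeq2 (adjusted p = 0.0386) and in the fit of only the libraries compared (edgeR adjusted p = 0.0338). Gpc3, with a log2 fold change of 3.30 ± 1.23 (edgeR adjusted p = 0.136), passed the threshold without T-HCC662 (3.71, edgeR adjusted p = 0.0413). In p21+/TertCi mice 0 genes (0%) were called by edgeR with 2 tumors and 2 livers, with 1618 at an unadjusted p under 0.05, whereas DESeq2 called 366, Gpc3 and Sox4 among them. The log2 fold changes there were 8.63 ± 2.04 for Gpc3, 7.94 ± 2.53 for Spink1, 4.90 ± 1.51 for Sox4, 2.71 ± 0.90 for Golm1, 2.40 ± 0.86 for Igf2bp3, 2.02 ± 1.33 for Ly6d, and -0.12 ± 1.25 for Igf2bp2, each with an edgeR adjusted p of 0.200 or more. The value of Igf2bp3 turned to -0.10 without TCi-HCC981, and that of Spink1 moved to 3.92 without TCi-HCA984.

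The difference between the genotypes, tested as an interaction, called 0 genes (0%) by edgeR, with 556 at an unadjusted p under 0.05 and 14 called by DESeq2. The tumor-to-liver change was larger in p21+/TertCi mice for Gpc3 by 5.33 ± 2.09 on the log2 scale and smaller for Ly6d, with a difference of -3.90 ± 1.65, and edgeR's adjusted p was 1.00 for both. The Ly6d difference moved to -1.85 without the liver of the TCi-HCA984 mouse. The 2 p21+/TertCi tumors had the highest Gpc3 levels (247 and 391 CPM), and the 4 p21+/Tert tumors did not exceed 18.1 CPM. Neither Ctnnb1-mutated tumor was p21+/TertCi, so genotype and driver class cannot be told apart for part of this difference.

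Other genes of the LIN28 and let-7 circuit were described from a list of 18, of which 14 were tested between tumors and livers, with 4 called, all higher in tumors (the 10.7% above is the share over all genes). Igf2, a fetal growth factor, had a log2 fold change of 7.74 ± 1.74 (SE, n = 6 and 6, edgeR adjusted p = 0.0138). It was measured at 682 CPM in T-HCC941, 22.3 in TCi-HCC981, 20.95 in T-HCA992, 4.50 in T-HCC662, 1.09 in TCi-HCA984, and 0.997 in T-HCC663, against at most 1.12 CPM in livers. Mycn, a Myc family transcription factor, had a log2 fold change of 2.47 ± 0.61 (edgeR adjusted p = 0.0217), Ccnd1, encoding cyclin D1, of 1.90 ± 0.32 (edgeR adjusted p = 0.00361), and Cdc25a, a phosphatase that activates cyclin-dependent kinases, of 1.07 ± 0.30 (edgeR adjusted p = 0.0394). Myc (0.46 ± 0.36, edgeR adjusted p = 0.451), Dicer1, which processes microRNA precursors (-0.32 ± 0.14, edgeR adjusted p = 0.157), Dis3l2, which degrades uridylated let-7 precursors (0.04 ± 0.33, edgeR adjusted p = 0.955), and Hmga1, the relative of Hmga2 (0.63 ± 0.19, edgeR adjusted p = 0.0545), did not pass the threshold. The median log2 fold change of the list was 0.50, beside 0.01 over all genes.

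**Figure D4:**
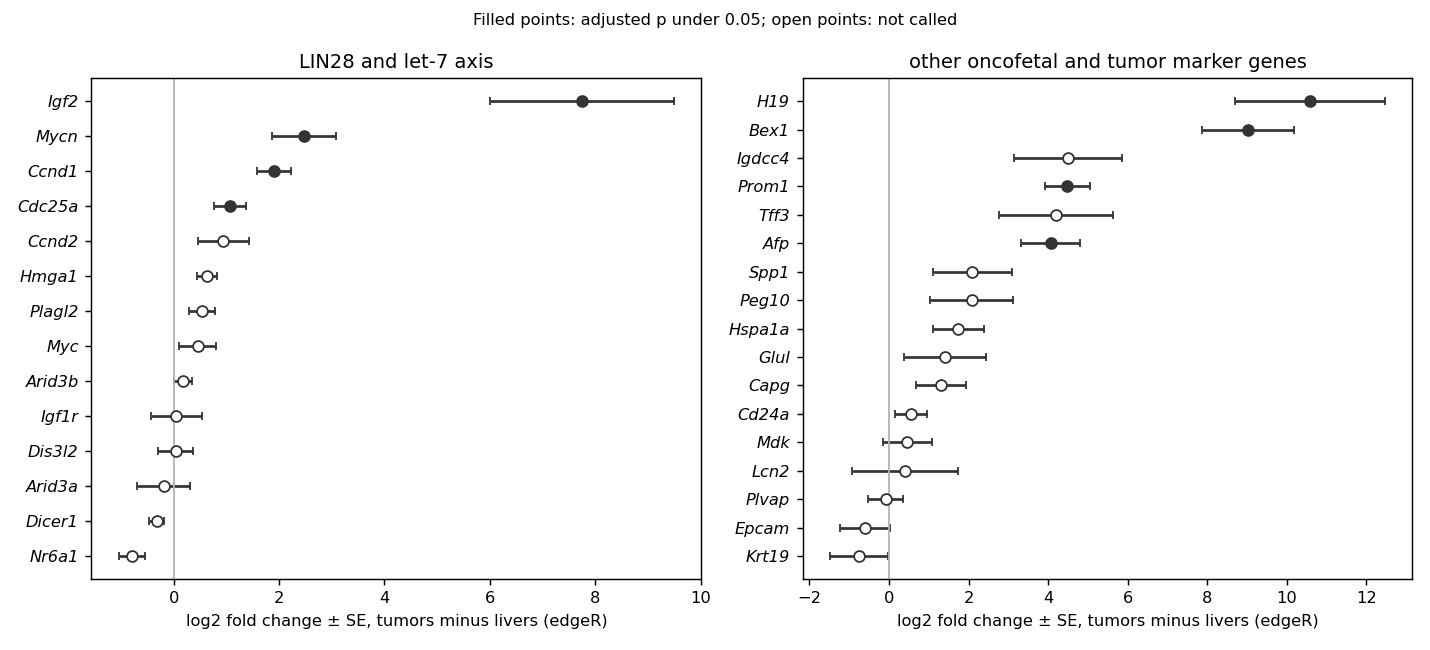
Points give the log2 fold change of tumors against livers for each tested gene of the LIN28 and let-7 list (left, 14 genes) and of the other oncofetal markers (right, 17 genes), with bars for the SE. Filled points passed an adjusted p of 0.05, and they are 4 in each panel, all above 0.

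Among 20 other oncofetal and tumor marker genes, 17 were tested, and 4 were called between tumors and livers, beside 10.7% of all genes. All 4 were higher in tumors, and the list median was 1.75. H19, an imprinted noncoding RNA of the fetal liver, had a log2 fold change of 10.58 ± 1.88 (edgeR adjusted p = 0.00437), and Bex1, an adaptor gene of progenitor cells, of 9.03 ± 1.15 (edgeR adjusted p = 0.000939). Prom1 and Afp were the other 2. Afp, encoding α-fetoprotein, had a log2 fold change of 4.06 ± 0.74 (edgeR adjusted p = 0.00472) and, like Gpc3, was lower in Ctnnb1-mutated than in other tumors (-3.09 ± 0.72, edgeR adjusted p = 0.0210). Its tumor values were 11.8 and 12.1 CPM in T-HCC662 and T-HCC663 and 29.1 to 233 CPM in the other 4. Between these classes 19 genes of the list were tested. Afp was the 1 called lower and Glul the 1 called higher, beside 12.5% of all genes called. Of 14 tested glypicans and heparan sulfate enzymes other than Gpc3, 0 were called between tumors and livers by edgeR, with 3 at an unadjusted p under 0.05 and 1 called by DESeq2. Between tumor classes, 15 of this list were tested, with 2 called lower in Ctnnb1-mutated tumors and 1 higher, to be read against the same 12.5%. Gpc4 (-2.11 ± 0.39, edgeR adjusted p = 0.00762) and the sulfotransferase gene Hs2st1 (-0.94 ± 0.24, edgeR adjusted p = 0.0269) were the lower ones. Notum, a secreted Wnt inhibitor that acts on glypican-bound Wnt, was higher (4.28 ± 0.36, edgeR adjusted p = 7.99e-05). In the Ly6 family 2 of 6 tested genes besides Ly6d were called, Ly6c1 (4.92 ± 0.69, edgeR adjusted p = 0.00152) and Lynx1 (1.91 ± 0.41, edgeR adjusted p = 0.0117), both higher in tumors. This count and that of the proliferation genes below compare tumors with livers, where 10.7% of all genes were called. Proliferation genes were higher in tumors for 8 of 9 tested, with summed levels of 12.1 to 177 CPM in tumors and 6.88 to 34.9 CPM in livers. The lowest tumor was TCi-HCA984, which held the second-highest Gpc3 and the highest Spink1 level.

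The genes whose log2(CPM + 0.5) followed each member most closely over the 12 libraries were also listed, as a description without a test, since tumors and livers of the same mice are pooled in it. Gpc3 was most like Grb10 (Pearson r = 0.957), an imprinted adaptor of the insulin and IGF receptors, followed by A230046K03Rik (0.947) and Eml4 (0.939). Igf2bp3 was most like Mst1r (0.947), a receptor tyrosine kinase gene, H19 (0.941), and Zfp54 (0.928). H19 was measured at 2059 CPM in T-HCC941 and 1318 in TCi-HCC981, the 2 tumors highest in Igf2bp3, and at 4.16 to 59.7 CPM in the others. Sox4 was most like Fmnl3 (0.975), Dapk2 (0.975), and 1700017B05Rik (0.972), Golm1 like Pkp2 (0.963), B4galt6 (0.958), and Eogt (0.955), Ly6d like Ifi27l2b (0.938), Ttc39aos1 (0.935), and Maged2 (0.931), and Igf2bp2 like Ap1s3 (0.957), Mvb12b (0.940), and Eif4g3 (0.915).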

How the data were processed

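Poly(A) RNA of 6 tumors and 6 non-tumoral livers was sequenced as paired ends. Per the labels and the study's methods, the authors filtered the reads, used Subread to map them to an mm10 genome that included mCherry, and deposited whole-number counts per gene symbol from featureCounts 1.6.4. The annotation release, strand setting, and treatment of multiple alignments are not given in the sources used here, nor is the sequencing run, which the authors used as a batch term in DESeq2.

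Counts were scaled by TMM, filtered with filterByExpr, and tested with edgeR 4.0.16 in R 4.3.3 (quasi-likelihood F test, Benjamini-Hochberg adjustment, threshold 0.05) in 3 models of all 12 libraries, by tissue, by genotype and tissue, and by tissue and driver class. The SE is the log2 fold change divided by the square root of F. Tumor and liver of the same mouse pair by design, and their deviations from the group means correlated at r = 0.0817 to 0.456. Each mouse gave 1 tumor and 1 liver. The 3 models took the 12 libraries as independent and left out this pairing. Their p-values rest on the spread between the libraries of a group, and the mouse as a block was an alternative. In the comparisons of classes each class held 2 tumors, and the spread was estimated from all 12 libraries, the livers included.

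As alternatives, DESeq2 1.42.0, RLE scaling, no filter beyond 1 count, a block for the mouse, a fit of only the libraries compared, each library left out, and T-HCC662 left out with its liver were tried, and, for ratios to the own liver, a pseudocount of 0.1 CPM, the mean of the 6 livers, and RLE. Tested on simulated counts in which 200 genes were changed, edgeR found 167 between tumors and livers (5 false calls) and 142 between Ctnnb1-mutated and other tumors (7 false calls). Only genes with a mean above 1 CPM were changed, all by large amounts, and no pairing by mouse was simulated. Recovery of smaller changes or of genes with fewer reads was therefore not measured.

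The members and gene lists were chosen with earlier results of these data known. Named were the 10 members, from each list the 2 called genes of largest change between tumors and livers, LIN28 and let-7 genes with a known role, and the 3 genes most like each tested member. Other genes, such as Afp, Gpc4, Hs2st1, Notum, and the marker genes of other cells, were named after their values were seen. Of the 15 lists beside the members, those of T cells (0 of 7), macrophages (0 of 8), stellate cells (0 of 8), cholangiocytes (0 of 7), and hepatocytes (0 of 9) had no edgeR call between tumors and livers (0, 0, 3, 0, and 1 at an unadjusted p under 0.05 in this order, and 0, 0, 3, 0, and 0 called by DESeq2), endothelial cells had 1 of 8 (Pecam1, higher) and erythroid cells 1 of 4 (Klf1, lower). Gene positions came from GENCODE M21, and minimap2 2.31 (at least 100 bases at 95% identity) found no near-identical copy of a member other than the overlapping genes named. Promoters were found for 7 members. Other tumors of the study were not analysed here.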

Additional observations from a re-analysis of the deposited data

Results flagged for a closer look

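The Gpc3 level of the T-HCA992 mouse's liver (1.59 CPM) stood apart from the other 3 p21+/Tert livers (0.382 to 0.461 CPM). On the log2(CPM + 0.5) scale the gap was 0.901 of the group's range, above Dixon's 95% critical value for 4 samples. This liver was the 1 such sample among 24 groups examined, and chance gives about 1 in 20 groups. The same liver had the highest Sox4 level (1.75 CPM) and the highest B cell marker sum (60.6 CPM) of the livers.

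The tumors differed by driver class for 3 members. Between Ctnnb1-mutated and other tumors the log2 difference was -9.13 for Gpc3, -6.01 for Spink1, and -2.83 for Golm1, by edgeR's test of the difference. Spink1 entered this test only through the tumors where it was high. All 3 calls were lost with the mouse as a block. Each of the 3 genes was lower in 2 of 2 Ctnnb1-mutated tumors than in any of the 4 others. The same held for Igf2bp2 and Sox4, which edgeR did not call. Both p21+/TertCi tumors are among the 4 others, so genotype and driver class cannot be told apart in the size of the Gpc3 value. How many of all genes separate in this way was not counted.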

How the results depend on the processing

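The 5 members called between tumors and livers remained 5 whichever single library was left out, and without T-HCC662 and the liver titled p_961. DESeq2 and the fit of every gene with at least 1 count called 6, with Spink1 added, and the block by mouse called 4, losing Gpc3. In p21+/TertCi mice DESeq2 called 2 members in place of 0. Between Ctnnb1-mutated and other tumors the 3 calls became 0 with the mouse as a replicate block, 1 when tumors alone were fitted, and 0 to 2 when single tumors were left out. Between Egfr- or Hras-mutated tumors and those with neither driver, DESeq2 called 1 member (Igf2bp3). The block changed no other call of a member than these and that of Sox4 in p21+/Tert mice. For the difference between genotypes, a fit of only the libraries compared is the reported one. The genes called over the whole table rose to 2677 with DESeq2 between tumors and livers, 2088 in p21+/Tert mice, and 3081 between Ctnnb1-mutated and other tumors, where tumors alone gave 839 and the block 441. DESeq2 called 366 in p21+/TertCi mice, where RLE gave 1 and every gene with at least 1 count gave 2, 14 for the difference between genotypes, and 103 between the tumors without Ctnnb1 mutations. Leaving out 1 library gave 863 to 1988, 240 to 1192, and 437 to 1653, with the lowest count without the liver titled p_961 in the first 2 and without T-HCC662 in the third. Counts also moved by over 1.5 times without T-HCC941 (942 and 587 in the first 2), without the livers of the T-HCC663 and T-HCC941 mice in the second (347 and 424), and without T-HCC663, T-HCA992, and TCi-HCC981 in the third (886, 1020, and 954). In p21+/TertCi mice the range was 0 to 7, and between the tumors without Ctnnb1 mutations 0 to 5. The median log2 ratio to the own liver moved to 4.65 in T-HCC941 and 3.87 in T-HCA992 with a pseudocount of 0.1 CPM, and to 4.02 in T-HCA992 and 3.96 in TCi-HCA984 against the mean of the 6 livers. The value of Igf2bp3 in p21+/TertCi mice ranged from -0.10 to 3.26 when 1 library was left out. The cause of these changes was not tested, and where a lone sample was left in an arm it was assumed to vary like the others. With under 100 reads for most members in most livers, small differences could not be seen.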
